A study of Mus musculus with 8 samples.

Results

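The regions described here are stretches of mouse chromatin that were open in the ATAC-seq library titled ATAC7 and in at least 1 of the libraries ATAC2, ATAC5 and ATAC6, while no peak was called there in ATAC1, ATAC3 or ATAC4. They were chosen by these measured peak calls: peaks of all 7 libraries that had at least 1 base in common were merged into 50683 regions, and the pattern held in 1024 of them. ATAC7 had a peak in 13863 regions, so the 1024 shared regions were 7.39% of its regions. Of the others, 12035 also had peaks from both sets of libraries, 457 were called in ATAC7 alone, and 347 showed the mirror pattern, with ATAC1, ATAC3 or ATAC4 and without ATAC2, ATAC5 and ATAC6.

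In ATAC-seq, the Tn5 transposase inserts sequencing adapters where DNA is not covered by nucleosomes, and peaks of insertions mark promoters and distal elements such as enhancers. Promoters of broadly used genes are open in most cell types, whereas distal elements tend to differ between cell types and are bound by combinations of transcription factors. Among these, AP-1 dimers of Jun and Fos proteins, RUNX, TEAD and NFI proteins are known in stromal cells and their bone, cartilage and fat descendants.

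All libraries came from wild-type C57BL/6J mice aged 6 weeks, and their labels name bone marrow stromal cells as the source. The study sorted stromal subpopulations of the marrow, but the labels do not give the population behind a title, so libraries are called by their titles. Each title had 1 library, and the same Input library was the control of every peak call, so each difference below is between libraries or between sets of regions, without a replicate check. ATAC7 had the fewest peaks, 15188, against 32280 in ATAC2, 31479 in ATAC5, 28969 in ATAC6 and 15650 to 24510 in the other 3.

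Of genes fixed as markers, 10 of 20 stromal progenitor genes had an ATAC7 peak within 1000 bases of a start site, against 42.1% of all protein-coding genes. The counts were 5 of 20 for osteoblast, 6 of 20 for chondrocyte and 7 of 19 for adipocyte genes, and 1 of 20 for endothelial, 2 of 20 for vascular mural and 4 of 19 for haematopoietic genes. A start-site peak at *Pdgfra*, a receptor used to sort these cells, was called in 5 libraries including ATAC7, and none was called at *Prrx1*, *Cdh5*, *Adipoq* or *Rgs5* in any library. *Pecam1*, the endothelial gene of CD31, had such a peak in ATAC5 and in no other library. *Ptprc*, which encodes the pan-leukocyte protein CD45, had such a peak in 4 libraries, ATAC7 among them. The study's methods describe a sort that removed cells with CD31, CD45 or TER119 on their surface. Whether other cells contributed to the regions below was not tested.

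Most of the shared regions lay away from start sites, and the sequences of 7 distal ones are printed to show AP-1 matches in place. Each is the central 200 bases of the region, read from the plus strand of build mm9, and capitals mark each match to TGANTCA, the core letters of an AP-1 site. Lrrc8d and Fam110a, each named by the protein-coding gene with the nearest start site, stand for the distal regions with peaks in all of ATAC2, ATAC5 and ATAC6 that had the best ATAC7 ranks, and Fam110a is shown as one without a match. The other 5 belong to genes of the stromal, matrix, signalling and haematopoietic lists described further on, and were picked among those that held a match. They do not stand for all distal regions: 33.0% of the 818 held a match, as did 9 of the 31 nearest to a listed gene. The Lrrc8d window is chr5:106261058-106261257, in an annotated intron 7628 bases from the start site, and the Fam110a window is chr2:151788281-151788480, between genes. The Col6a2 window, chr10:76111556-76111755, the Twist1 window, chr12:34725930-34726129, and the Foxc1 window, chr13:31856496-31856695, also lie between genes. The Tgfbr2 window, chr9:116062007-116062206, and the Runx1 window, chr16:92778350-92778549, lie in annotated introns.
Lrrc8d: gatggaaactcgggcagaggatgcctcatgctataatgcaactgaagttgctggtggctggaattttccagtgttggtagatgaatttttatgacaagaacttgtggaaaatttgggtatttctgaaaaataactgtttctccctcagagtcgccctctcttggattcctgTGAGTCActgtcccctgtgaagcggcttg
Fam110a: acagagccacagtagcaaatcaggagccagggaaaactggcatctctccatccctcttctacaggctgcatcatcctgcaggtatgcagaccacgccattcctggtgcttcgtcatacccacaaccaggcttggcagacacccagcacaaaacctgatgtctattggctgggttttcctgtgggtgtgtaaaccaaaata
Col6a2: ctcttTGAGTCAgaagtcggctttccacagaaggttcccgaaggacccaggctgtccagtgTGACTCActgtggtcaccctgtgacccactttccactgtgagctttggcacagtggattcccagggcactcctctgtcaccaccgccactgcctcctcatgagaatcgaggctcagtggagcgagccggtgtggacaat
Twist1: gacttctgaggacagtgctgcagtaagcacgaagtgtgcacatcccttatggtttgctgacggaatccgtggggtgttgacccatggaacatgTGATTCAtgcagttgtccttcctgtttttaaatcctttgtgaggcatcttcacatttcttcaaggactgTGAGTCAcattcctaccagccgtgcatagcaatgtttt
Foxc1: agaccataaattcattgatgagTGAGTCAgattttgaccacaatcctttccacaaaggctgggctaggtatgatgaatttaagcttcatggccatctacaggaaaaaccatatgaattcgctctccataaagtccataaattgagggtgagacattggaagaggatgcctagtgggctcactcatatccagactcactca
Tgfbr2: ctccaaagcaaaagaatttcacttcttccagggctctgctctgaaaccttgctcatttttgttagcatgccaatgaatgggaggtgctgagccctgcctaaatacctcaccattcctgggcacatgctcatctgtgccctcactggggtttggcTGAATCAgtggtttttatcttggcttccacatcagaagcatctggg
Runx1: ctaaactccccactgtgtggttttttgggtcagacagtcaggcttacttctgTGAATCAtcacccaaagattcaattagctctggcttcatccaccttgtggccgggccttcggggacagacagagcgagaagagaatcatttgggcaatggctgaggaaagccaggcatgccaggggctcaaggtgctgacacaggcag

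The Col6a2 and Twist1 windows hold 2 matches each, and the Lrrc8d, Foxc1, Tgfbr2 and Runx1 windows hold 1. A match is a run of letters and does not show that a factor was bound.

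*Lrrc8d* encodes a subunit of volume-regulated anion channels. In its region the best-ranked peaks held 130 reads in ATAC7, 123 in ATAC2, 220 in ATAC5 and 149 in ATAC6, and the folds over Input were 17.9, 19.4, 16.4 and 18.0. Here ATAC7 was within the range of the others, and the nearest peak of an excluded library was 36574 bases away. The Fam110a region had folds of 9.87 in ATAC7, 18.4 in ATAC2 and 15.9 in both ATAC5 and ATAC6, so ATAC7 was the lowest.

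The 1024 regions were mostly shared with several libraries. A peak of ATAC5 was present in 868 of them (84.8%, 95% Wilson interval 82.4 to 86.8), a peak of ATAC2 in 791 (77.2%, 74.6 to 79.7) and a peak of ATAC6 in 684 (66.8%, 63.9 to 69.6). All 3 were present in 527 regions. ATAC2 with ATAC5 followed with 140, ATAC5 alone with 123, ATAC5 with ATAC6 with 78, ATAC2 alone with 77, ATAC2 with ATAC6 with 47 and ATAC6 alone with 32. These counts follow from the peak calls that chose the regions and are a description.

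**Figure D1:**
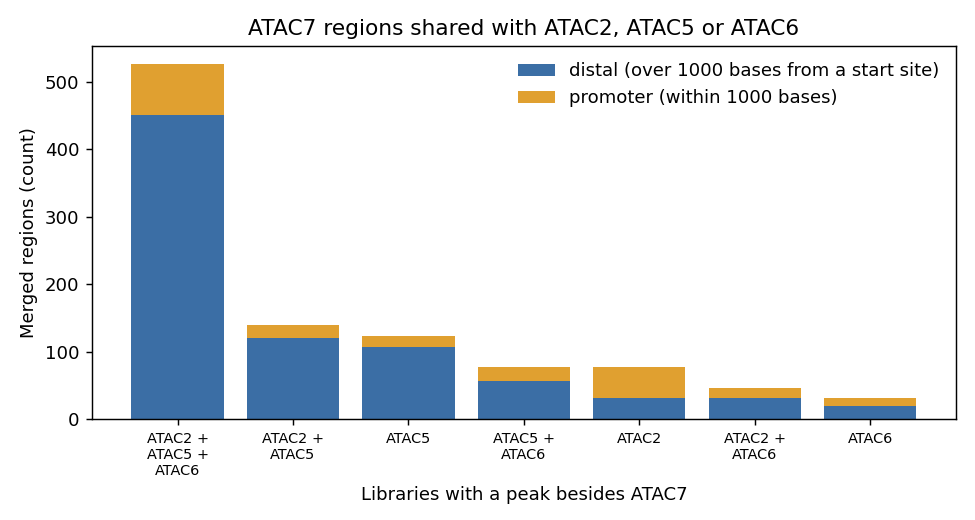
Number of merged regions (vertical axis, count) for each combination of libraries that had a peak besides ATAC7 (horizontal axis), with distal regions in blue and promoter regions in orange. The combination of ATAC2, ATAC5 and ATAC6 holds 527 of the 1024 regions, 451 of them distal, and ATAC2 alone is the combination in which promoters outnumber distal regions, with 46 against 31.

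The same count was made with another library in the place of ATAC7, always with the other 3 excluded. ATAC3 shared 444 of its 14274 regions in this way (3.11%) and ATAC4 391 of 14085 (2.78%), against 7.39% for ATAC7. ATAC1, which had more peaks, shared 3260 of 22269 (14.6%). These shares count the peak calls that chose the regions and are a description of single libraries.

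Promoters were few among the shared regions. The centre lay within 1000 bases of an annotated start site in 206 of 1024 (20.1%, 17.8 to 22.7), against 40.0% of all merged regions and 73.2% (68.3 to 77.6) of the 347 mirror regions. The difference from the mirror regions was -53.1 percentage points (95% Newcombe interval -58.1 to -47.6). In the 23945 regions called in ATAC2, ATAC5 or ATAC6 and in no other library, 22.1% lay at promoters, and the difference of -1.96 points had an interval of -4.36 to 0.659, which includes 0.

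The corresponding sets of the other libraries were richer in promoters, with 36.7% (35.1 to 38.4) for ATAC1, 45.9% (41.4 to 50.6) for ATAC3 and 54.2% (49.3 to 59.1) for ATAC4. The median distance from the nearest start site was 11816 bases for the shared regions, 9790 for those of ATAC2, ATAC5 or ATAC6 only, 456 for the mirror regions and 95 for the 8428 regions called in all 7 libraries. Of the 818 distal shared regions, 405 (49.5%) lay between genes and 392 (47.9%) in introns, close to the 47.8% and 48.1% of all distal regions. A further 11 lay in coding exons, 9 in untranslated regions and 1 in another exon. The share of promoters depended on what counted as an overlap: when peaks had to share at least 50% of both lengths, 1782 regions qualified and 49.0% of them lay at promoters.

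**Figure D2:**
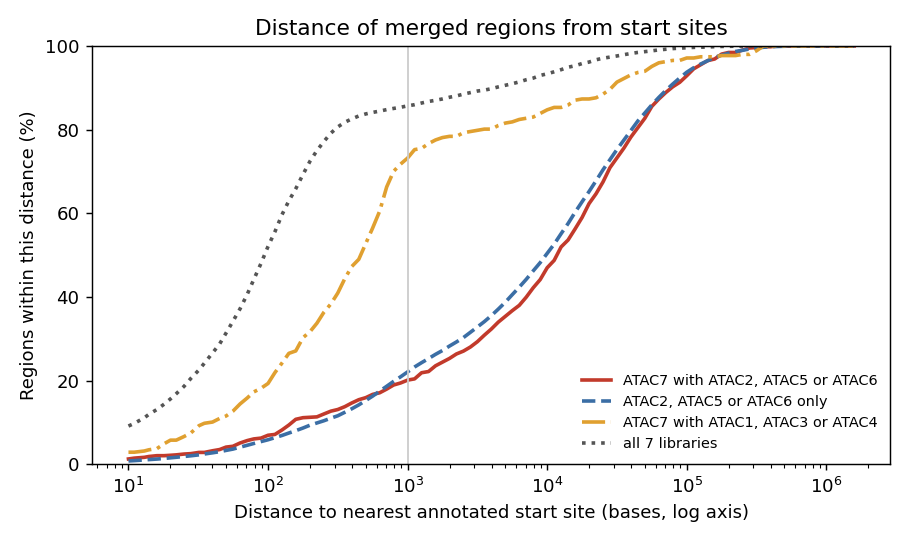
Cumulative share of merged regions (vertical axis, %) within a given distance of the nearest annotated start site (horizontal axis, bases, log scale) for 4 sets of regions, with a vertical line at 1000 bases. The curve of the 1024 shared regions runs close to that of the regions of ATAC2, ATAC5 or ATAC6 only, at 20.1% and 22.1% within 1000 bases, and far below the mirror regions (73.2%) and those called in all 7 libraries (85.7%).

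Absence of a called peak is not absence of signal, so the nearest peak of an excluded library was located for each region. It was more than 1000 bases away in 821 of 1024 (80.2%, 77.6 to 82.5), at a median of 14447.5 bases. With at least 50% reciprocal overlap as the rule for sharing, this held for 30.9% of 1782 regions. Excluded peaks with a smaller overlap did not disqualify a region under that rule. Among the 1024 regions, distal ones were far from an excluded peak in 714 of 818 cases (87.3%, 84.8 to 89.4), and promoter ones in 107 of 206 (51.9%, 45.1 to 58.7). Promoter regions shared with ATAC2 alone had an excluded peak within 1000 bases in 41 of 46 cases, and those shared with all of ATAC2, ATAC5 and ATAC6 in 17 of 76. At many promoters, then, the excluded libraries had a peak beside the region and not on it.

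At the border of the rule, 18 regions qualified through fewer than 10 shared bases, and the smallest overlap was 1 base (median 127). The smallest gap to an excluded peak was 1 base, and 32 regions were within 10 bases of one. Just outside the rule, 66 of the 457 regions called in ATAC7 alone lay within 10 bases of a peak of ATAC2, ATAC5 or ATAC6, and 389 lay within 1000 bases.

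The ATAC7 peaks in these regions were low in the ATAC7 list. The 1045 peaks had a median rank of 13275 of 15188, and 54 of them (5.17%) stood in the better-ranked 50% of the list. Their median read count was 71, against 149 over all ATAC7 peaks, and the median Input count was 12 against 32. The median fold over Input was 6.84, against 5.97 over the whole list. Peaks of the shared regions thus had fewer reads but no lower a fold, and the Input count was also lower there.

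In the other libraries the same regions stood near the middle of the lists. The median rank was at 49.8% of the ATAC2 list, 50.8% of the ATAC5 list and 58.3% of the ATAC6 list. In the regions called in these libraries and in none of the other 4 it was at 71.2%, 74.0% and 74.5%. Median folds in the shared regions were 11.5 in ATAC2, 12.9 in ATAC5 and 10.7 in ATAC6, against 9.27, 10.9 and 10.1 over each whole list. These values come from the peaks that chose the regions, so nothing is tested on them.

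Among the regions called in ATAC2, ATAC5 and ATAC6 together, 524 had Input reads in every peak. ATAC7 had the lowest fold of the 4 libraries in 455 (86.8%) and the highest in 8. In the regions called in all 7 libraries it was the lowest of the same 4 in 94.1%. Its log2 fold was below the mean of the other 3 by a median difference of -0.85, and in the regions called in all 7 libraries this median was -1.04. The highest of the 3 other folds was that of ATAC5 in 56.9%, of ATAC2 in 29.4% and of ATAC6 in 13.7% of these regions. In the regions called in all 7 libraries it was that of ATAC2 in 4.10% and of ATAC6 in 36.8%, so the order of ATAC2 and ATAC6 was the other way round there.

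The 5 promoter regions with the best ATAC7 ranks were at *Brp44*, *Cdca3*, *Ifrd1*, *Zdhhc5* and *Trim28*. At *Brp44*, which encodes a subunit of the mitochondrial pyruvate carrier, ATAC7 had 1743 reads and a fold of 15.4, and ATAC2 had 2192 reads and a fold of 22.5. At *Cdca3*, a gene of mitotic entry, the folds were 23.4 in ATAC7 and 39.4 in ATAC2. *Zdhhc5*, a palmitoyltransferase gene, had 13.1 and 22.4, and *Trim28*, a gene of transcriptional silencing, had 6.65 and 11.4. All 4 were shared with ATAC2 alone and had an excluded peak 11, 108, 107 and 261 bases away, in this order. The fifth, at the transcriptional regulator gene *Ifrd1*, differed from them. It was shared with ATAC5 and ATAC6, held 1477 reads in ATAC7, 2927 in ATAC5 and 2553 in ATAC6, had folds of 11.7, 32.5 and 26.3, and was 22702 bases from an excluded peak.

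Of the 10 distal regions with the best ATAC7 ranks, 3 had ATAC7 folds under 3. The region nearest to *Gm3395*, on the Y chromosome, had a fold of 2.11 in ATAC7 and 2.17 in ATAC2, with 188 and 210 Input reads. The regions of *Maml2*, a Notch coactivator gene, and *Rpp21*, a gene of ribonuclease P, had ATAC7 folds of 2.09 and 2.47. All 3 had more Input reads than the median of the list. *Tasp1*, a protease gene, was at the other end, with folds of 30.9 in ATAC7, 43.1 in ATAC2, 83.8 in ATAC5 and 45.1 in ATAC6, each over 6 Input reads. *Klf13*, a gene of a zinc-finger factor, had 5.62, 8.44, 15.7 and 8.68, and *Rab2a*, a gene of vesicle transport, had 5.81, 14.4, 10.8 and 12.05. The *Klf13* region was 171275 bases from the *Klf13* start site. *Adssl1*, a gene of purine synthesis, had 5.99 in ATAC7 and 4.91 in ATAC2, 44 bases from an excluded peak. The remaining one, nearest to *8030462N17Rik*, a gene known by its clone name, had a fold of 9.41 in ATAC7 and 11.3 to 12.5 in the others.

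Sequence was not used to choose the regions. AP-1 letters, TGANTCA, were found on either strand in the central 200 bases of 270 of the 818 distal shared regions (33.0%, 29.9 to 36.3), against 23.3% of all distal regions. The share was 26.5% in distal regions of ATAC2, ATAC5 or ATAC6 only, a difference of 6.48 points (3.28 to 9.83), and 11 of 93 (11.8%) in distal mirror regions, a difference of 21.2 points (12.5 to 27.2). The intervals treat regions as independent and cover counting error only. The sets also differed in width, with promoters included. The median was 315.5 bases for shared regions and 181 for regions of ATAC2, ATAC5 or ATAC6 only. The window of 200 bases was thus wider than many regions of the latter set. Whether width bears on the AP-1 shares was not tested. Of 315 matches in the shared regions, 251 (79.7%) had C or G as the middle base, against 77.2% of matches in all distal regions. At least 2 matches were held by 42 shared regions (5.13%), against 3.31% of all distal regions. Matches lay within 50 bases of the centre in 52.7% of cases, against 59.8% in all distal regions and 61.3% in those of ATAC2, ATAC5 or ATAC6 only.

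The comparison was repeated at a fixed number of libraries. Among distal regions with peaks in all of ATAC2, ATAC5 and ATAC6, AP-1 letters were found in 38.8% of the shared regions and in 32.0% of the regions that no other library had called, a difference of 6.80 points (2.06 to 11.7). With 2 of the 3 libraries the shares were 26.3% and 28.8% (difference -2.48, -8.16 to 4.03), and with 1 library 25.3% and 24.5% (0.830, -5.36 to 8.18). The higher share was thus seen in regions called in all 3, and whether the strata differ from each other was not tested. Within these, split by the rank of the ATAC5 peak, the difference was 2.75 points (-3.83 to 9.51) in the better 50% of the ATAC5 list and 10.4 points (2.93 to 18.2) in the rest.

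The other libraries gave different shares in the same place. Distal regions that ATAC1 shared with ATAC2, ATAC5 or ATAC6 had AP-1 letters in 15.7%, 17.4 points below the ATAC7 set (13.8 to 21.0), and those of ATAC4 in 12.8%, 20.2 points below (13.7 to 25.4). Those of ATAC3 had them in 32.9%, a difference of 0.0907 points (-6.83 to 6.62). The high share was therefore found for ATAC7 and ATAC3 and not for ATAC1 and ATAC4. At promoters the letters were rarer, in 22 of 206 shared regions (10.7%), against 5.41% of all promoter regions, a difference of 5.27 points (1.73 to 10.2). Promoter regions of ATAC2, ATAC5 or ATAC6 only had them in 9.61%, and the difference of 1.07 points from these had an interval of -2.55 to 6.09, which includes 0.

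Of the 15 other motifs searched, 4 differed from all distal regions with an interval that excluded 0, and 2 of these also from regions of ATAC2, ATAC5 or ATAC6 only. The NFI letters TTGGCA was found in 17.8%, against 13.4% of all distal regions and 14.3% of those of ATAC2, ATAC5 or ATAC6 only, a difference from the latter of 3.52 points (0.993 to 6.33). The STAT letters TTCNNNGAA were in 8.80%, against 6.61% of all distal regions, a difference of 2.19 points (0.418 to 4.35), and 6.95% of the latter set, a difference of 1.85 points (0.0575 to 4.02). The RUNX letters TGTGGT were in 24.0%, close to the 22.7% of all distal regions, and the TEAD letters GGAATG in 13.9% against 12.4%. GATA letters, AGATAA, were in 4.16% against 7.36% of all distal regions and 9.68% of the mirror regions. Regions of ATAC2, ATAC5 or ATAC6 only had them in 5.34%, and the difference of -1.18 points from these had an interval of -2.39 to 0.445, which includes 0. ETS letters, CCGGAA, were in 2.81% against 4.59% of all distal regions, a difference of -1.78 points (-2.74 to -0.392), and 3.82% of those of ATAC2, ATAC5 or ATAC6 only (-1.01, -1.98 to 0.388). SOX letters, AACAAT, were in 6.36% against 6.03% of all, 13.98% of the mirror regions and 5.69% of those of ATAC2, ATAC5 or ATAC6 only. All 16 motifs were searched on both strands, and the intervals are not adjusted for their number.

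**Figure D3:**
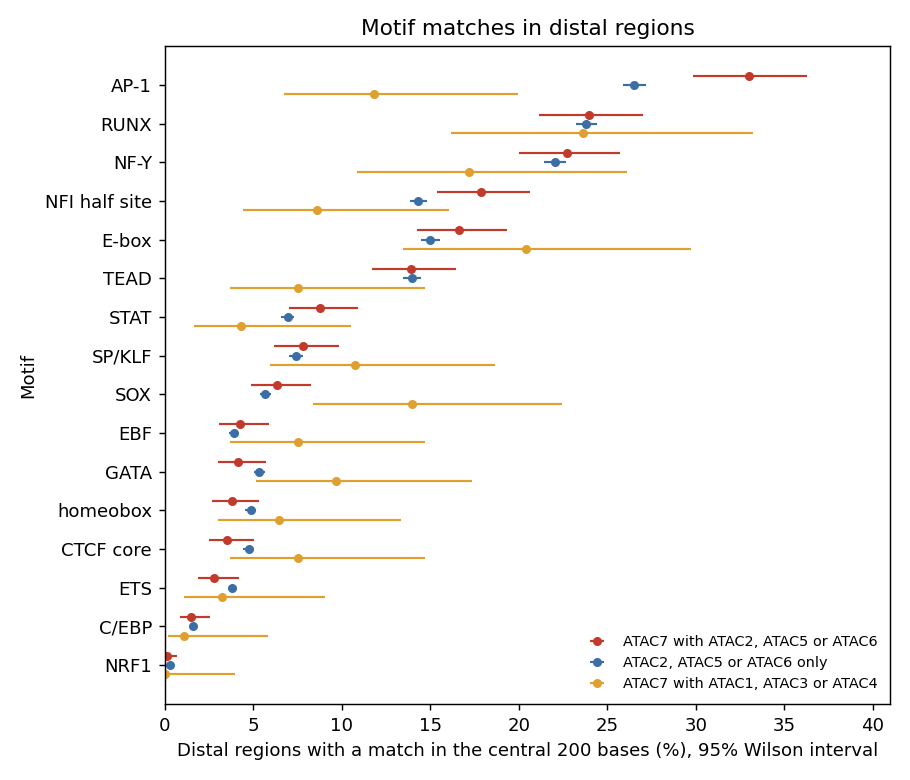
Share of distal regions with a motif match in their central 200 bases (horizontal axis, %) for 16 motifs (vertical axis) in 3 sets of regions, with points for the share and bars for the 95% Wilson interval. AP-1 has the highest share in the 818 shared regions, 33.0%, above the 26.5% of regions of ATAC2, ATAC5 or ATAC6 only and the 11.8% of the 93 mirror regions, while RUNX lies near 24.0% in each set.

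A region was assigned to the protein-coding gene with the nearest start site, which does not show that it acts on that gene. At least 1 shared region was nearest to 879 of 22238 protein-coding genes (3.95%), and at least 1 distal one to 702 (3.16%). The first count was 1547 genes under 50% reciprocal overlap and 1519 when every start site within 50000 bases counted. Of the 879 genes, 756 had 1 region and 104 had 2. The highest numbers were 5 at *Isg20*, an interferon-induced exonuclease gene, and 4 at *Myc*, the proto-oncogene of growth. *Col6a2*, a collagen VI chain, *Tes*, a focal adhesion protein, and *Ston2*, an endocytic adaptor, followed with 3 each, among 17 genes with that number. Many other regions lay nearest to these genes too, 17 in all at *Isg20*, 34 at *Myc*, 11 at *Col6a2*, 8 at *Tes* and 13 at *Ston2*, and shared regions were 2.02% of all merged regions. The 3 *Tes* regions were 105104 to 106592 bases from the *Tes* start site. They were 6 to 1137 bases from a start site of *Gm4876*.

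The 4 *Myc* regions lay in introns, between 62208 and 215613 bases from the *Myc* start site, and the nearest to it was 11569 bases from the start of the non-coding gene *Pvt1*. Their ATAC7 folds were 12.5, 9.63, 4.29 and 5.13 in order of ATAC7 rank. The 5 *Isg20* regions were 24983 to 50555 bases from its start site and 1729 to 23560 bases from an excluded peak. In the one shared by ATAC5 and ATAC6 with the best rank, ATAC7 had 112 reads and a fold of 11.2, ATAC5 395 reads and 16.5, and ATAC6 141 reads and 13.9. Regions near the same gene thus differed in the combination of libraries that shared them.

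Lists of 20 genes each were set beside these shares. Of the 20 matrix genes 7 were nearest to a shared region, against 3.95% of all genes, as were 5 of 20 stromal progenitor genes, 5 of 20 genes of TGF-beta and BMP signalling and 4 of 20 osteoblast genes. The counts were 2 of 20 for mural and for endothelial genes, 1 of 20 for chondrocyte genes, 1 of 19 for haematopoietic genes and 0 of 19 for adipocyte genes. The lists also differ from other genes in how many regions lie around them: the median number of merged regions nearest to a gene was 6.5 for matrix and signalling genes, 3.5 for stromal progenitor genes and 4 for osteoblast genes, against 1 over all genes. Chondrocyte genes, with a median of 5 regions each and 80.0% of genes beside a distal region of ATAC2, ATAC5 or ATAC6 only, had 1 gene beside a shared region. That share was 85.0% for matrix and for signalling genes, 80.0% for osteoblast genes and 31.6% over all genes. When every gene with a start site within 50000 bases of a shared region was counted, the counts were 3 of 19 for haematopoietic, 3 of 20 for endothelial, 1 of 19 for adipocyte and 0 of 20 for chondrocyte genes, against 6.83% of all genes, and the counts of the other lists differed by at most 1. How far the number of regions accounts for the counts was not tested.

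**Figure D4:**
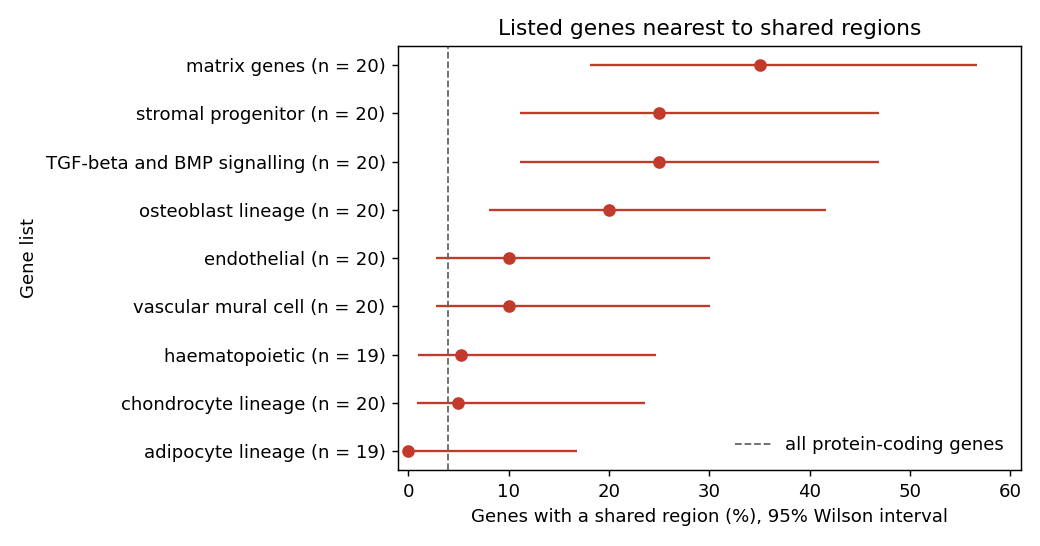
Share of the genes of each list (vertical axis) that were nearest to at least 1 shared region (horizontal axis, %), with points for the share, bars for the 95% Wilson interval and a dashed line at the 3.95% of all protein-coding genes. Matrix genes have the highest share, 35.0%, and adipocyte genes have none, with intervals that are wide because each list holds 19 or 20 genes.

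Among the matrix genes, *Col6a2* had 3 distal regions. In the one whose sequence is printed above, 25281 bases from the start site, ATAC7 had 156 reads, ATAC2 268, ATAC5 245 and ATAC6 260, and the folds were 7.17, 10.3, 12.3 and 11.7. ATAC7 was the lowest of the 4. The next region, shared with ATAC2 and ATAC6, had folds of 7.82, 16.6 and 15.2, and the third, shared with ATAC2 and ATAC5, had 3.56, 5.44 and 10.04. *Col6a1*, the neighbouring collagen VI chain, had a shared region at its promoter with folds of 3.78 in ATAC7, 9.39 in ATAC2 and 8.13 in ATAC6.

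*Tnc*, the matrix glycoprotein tenascin C, had 2 intronic regions with ATAC7 folds of 5.58 and 5.33. *Col4a2*, a basement membrane collagen, had 3.47 in ATAC7 and 6.09, 8.85 and 4.83 in ATAC2, ATAC5 and ATAC6. *Mmp2*, a gelatinase gene, was shared with ATAC5 alone, with 3.25 and 7.70. In each of these distal matrix regions the ATAC7 fold was the lowest. *Serpinh1*, a collagen chaperone gene, had a promoter region with 6.07 in ATAC7 and 10.5 to 10.98 in the others. *Lox*, a collagen cross-linking enzyme, had a promoter region with 7.202 in ATAC7, 9.23 in ATAC2, 12.1 in ATAC5 and 6.57 in ATAC6, 142 bases from an excluded peak.

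The stromal progenitor genes showed a wider spread. *Nt5e*, which encodes the surface enzyme CD73, had folds of 11.02 in ATAC7, 40.4 in ATAC2, 33.3 in ATAC5 and 28.6 in ATAC6, but an excluded peak lay 534 bases away. *Foxc1*, a factor of the marrow niche, had 13.2, 25.5, 15.4 and 14.2 in the same order. The mesenchymal factor gene *Twist1* had 8.95, 14.4, 15.8 and 8.49, so here ATAC6 and not ATAC7 was the lowest. *Vcam1*, an adhesion molecule of stromal cells, had 9.10, 13.2, 13.3 and 12.2, and was 115360 bases from an excluded peak. *Gli1*, a Hedgehog effector, had 5.52 in ATAC7, 10.4 in ATAC2 and 8.92 in ATAC5, and its start site was 1084 bases and an excluded peak 228 bases away.

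The signalling genes were receptors, an inhibitor and a ligand. *Tgfbr2*, the type II TGF-beta receptor, had folds of 7.31 in ATAC7, 14.7 in ATAC2, 16.3 in ATAC5 and 10.02 in ATAC6. The co-receptor gene *Tgfbr3* had 2 regions shared with ATAC2 and ATAC5, with ATAC7 folds of 8.82 and 7.72. *Acvr1*, a type I BMP receptor, had 3 intronic regions between 4437 and 8078 bases from its start site. Their ATAC7 folds were 5.85, 5.32 and 10.8, and the last, shared with all 3 libraries, had 14.3 in ATAC2, 17.6 in ATAC5 and 19.9 in ATAC6. The inhibitor gene *Smad7* had 2 distal regions shared with ATAC5 alone, with ATAC7 folds of 3.28 and 3.68, and a promoter region shared with ATAC5 and ATAC6, with folds of 8.33, 23.2 and 16.2 in ATAC7, ATAC5 and ATAC6. The distal *Smad7* regions were 120047 and 118743 bases from the *Smad7* start site. The ligand gene *Bmp4* had a promoter region with 6.48 in ATAC7 and an excluded peak 56 bases away.

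The osteoblast genes with a distal shared region were *Ibsp*, *Mef2c* and *Phex*. *Ibsp*, a bone matrix sialoprotein, had 6.99 in ATAC7 and 10.3 in ATAC5. *Mef2c*, a transcription factor gene, had 5.74 in ATAC7, 8.32 in ATAC2 and 10.6 in ATAC6. *Phex*, a gene of phosphate balance, had 14.7 in ATAC7 and 30.8 in ATAC5, over 3 and 4 Input reads, and its start site was 570728 bases away. *Col1a2*, a chain of type I collagen, had a promoter region with 8.52 in ATAC7, 13.1 in ATAC2, 16.7 in ATAC5 and 8.96 in ATAC6, and no excluded peak within 86027 bases.

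The remaining lists gave *Trps1*, *Cspg4*, *Mylk*, *Ets1*, *Cdh5* and *Runx1*. *Trps1*, a factor of cartilage, had 2 regions, with folds of 13.2 in ATAC7, 16.7 in ATAC2 and 36.4 in ATAC5 for the better-ranked one, which had an excluded peak 25 bases away, and 6.32, 24.0, 30.04 and 19.8 in ATAC7, ATAC2, ATAC5 and ATAC6 for the other. These regions were 123542 and 430465 bases from the *Trps1* start site. *Cspg4*, the pericyte proteoglycan NG2, had 9.74, 11.5, 11.3 and 9.96, nearly level over the 4 libraries. *Mylk*, a myosin kinase gene of contractile cells, had a promoter region with 7.52, 12.3, 19.8 and 14.9. *Ets1*, a factor of endothelial and lymphoid cells, had 3 regions with ATAC7 folds of 5.37, 6.99 and 7.25, the second of them 46 bases from an excluded peak. *Cdh5*, the endothelial cadherin, had 6.80, but that region was 321784 bases from its start site. *Runx1*, a blood and stromal factor, had 7.58, 12.8, 11.5 and 8.57 in an intron.

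**Figure D5:**
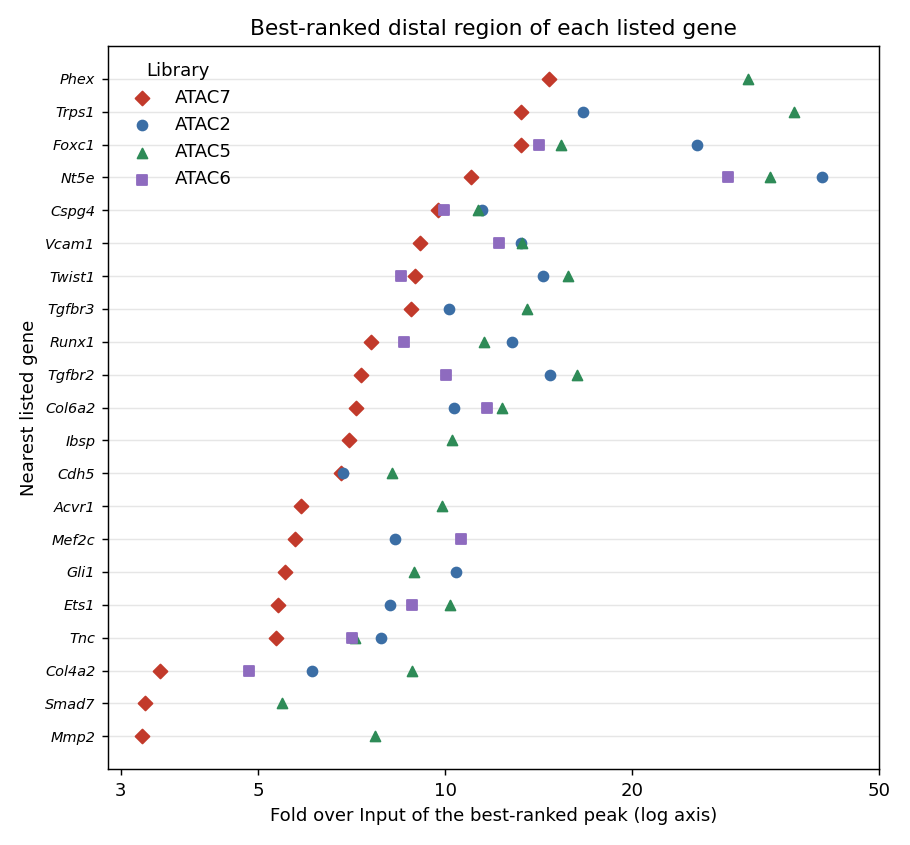
Fold over Input (horizontal axis, log scale) of the best-ranked peak of each library in the distal shared region with the best ATAC7 rank, for 21 listed genes (vertical axis), with a symbol for each library that had a peak. ATAC7 is the lowest symbol for every gene except *Twist1*, where ATAC6 lies lower, at 8.49 against 8.95.

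Start sites of the genes near distal shared regions lie outside those distal regions. A gene can still have a shared region at its promoter, whose peaks the rule used, and 18 of the 702 genes had such a peak at a start site, again within 1000 bases. Without these 18, 418 of 684 genes (61.1%, 57.4 to 64.7) had an ATAC7 peak at a start site, against 41.6% of the 22039 protein-coding genes left by the same exclusion. With them, the shares were 62.1% and 42.1%. Genes near distal regions of ATAC2, ATAC5 or ATAC6 only, and near no distal shared region, were closer. When genes with a peak of either set of regions at a start site were left out, the ATAC7 share was 57.3% (52.6 to 61.9) of 438 genes near shared regions, 49.5% (48.0 to 50.9) of 4592 genes near the others and 38.7% of all 18065 genes left. Each other library also had a higher share near shared regions than near the others. In this order, the shares were 65.5% and 57.3% in ATAC1, 59.4% and 51.6% in ATAC3, and 56.4% and 51.4% in ATAC4. They were 61.2% and 54.2% in ATAC2, 62.3% and 55.8% in ATAC5, and 62.8% and 55.7% in ATAC6. The higher share was thus not particular to ATAC7.

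The other libraries also had a higher share at the genes near distal shared regions than at all genes. Over all 702 genes the shares were 72.1% in ATAC2, 73.9% in ATAC5 and 72.5% in ATAC6, against 50.3%, 52.8% and 51.7% of all genes. They were 68.2% in ATAC1, 62.0% in ATAC3 and 58.1% in ATAC4, against 49.1%, 43.6% and 43.8%, and without the 18 genes they were 68.4%, 62.1% and 58.3%. The start sites of these genes thus had a peak more often than the average in the libraries that lacked the distal region as well. No start-site peak of ATAC1, ATAC3 or ATAC4 was called for 203 of the 684 genes (29.7%), against 49.8% of all genes under the same exclusion, and none of any library for 147 (21.5%), against 43.6%.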

How the data were processed

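ATAC-seq peak lists of 7 libraries were analysed, and the reads themselves were not used. The authors aligned reads to build mm9 with bowtie and called peaks per library against Input with CisGenome in its two-sample mode, at a p-value limit of 1e-05 and an FDR under 0.01. A shift of reads for the transposase and a duplicate filter are not given in the sources used here, and without a shift the edges of a peak could lie some bases off. The labels' extraction text describes RNA and not transposed DNA.

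Columns of the deposited tables, which carry no header line, were identified by their values. They give whole-number counts of library and Input reads around each peak, and a deposited ratio, the fold over Input, which equals a scale times the reads over Input reads plus 0.01, with a scale constant to 0.0477% within a library. The authors' ranking signal gave the order of peaks only. The deposited positions equalled those of the separate coordinate lists in all 164103 peaks. Total reads per library are not in these tables, so depth is unknown, and the number of peaks per library is given instead.

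Peaks with 1 shared base were merged with Python 3.11.15, numpy 2.4.6 and pandas 2.3.3, which gave the same 50683 regions as bedtools 2.31.1. Sequence was read with pysam 0.24.0 from the assembly NCBIM37 (mm9), and start sites came from GENCODE vM1. All peaks fitted within their chromosomes. Promoter means a region centre within 1000 bases of a start site, and distal means farther. Motifs were searched in 200 bases around the centre. Shares have 95% Wilson intervals and differences 95% Newcombe intervals, which cover counting error only. With 1 library per title no test between conditions was possible. As a check of the code only, 100% of planted regions were recovered on 2923 simulated places. These places were well separated and held no borderline overlaps, so such cases were not checked. Exact motif letters planted in separate random sequences were also recovered at 100%.

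The regions, gene lists and motifs were chosen with earlier results of these data known. Of 180 listed genes 178 matched the annotation, older symbols through RefSeq synonyms. Named are the 5 promoter and 10 distal regions with the best ATAC7 rank, the 5 such distal regions in ATAC2, ATAC5 and ATAC6 with no excluded peak within 1000 bases, the 5 genes with most regions (ties by ATAC7 rank, set after seeing values) and each listed gene nearest to a distal region. The promoter regions of *Col6a1*, *Lox*, *Serpinh1*, *Bmp4*, *Smad7*, *Col1a2* and *Mylk* were named outside this rule after their values were seen, and the split by ATAC5 rank was also set after seeing values.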

Additional observations from a re-analysis of the deposited data

How the results depend on the processing

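No paired analysis was possible because the libraries were not replicated. Of 53 values recomputed under alternatives, 35 stayed within their counting error or 1.5 times and 18 moved. Requiring 50% reciprocal overlap gave 1782 regions (the cause was not tested), 49.0% at promoters, 30.9% far from an excluded peak, a median ATAC7 fold of 5.99 and 1547 genes, with AP-1 letters in 31.5% of distal regions. Under that rule an excluded peak with a smaller overlap did not disqualify a region, so these regions can overlap one. Merging peaks within 500 bases gave 12.7% at promoters and 95.7% far from an excluded peak, and the outer regions 12.7% and 92.8%. Equal peak numbers gave 24.5% and 86.2%. A fold of at least 5 gave a median fold of 7.58. Promoter windows of 500 and 5000 bases gave 15.9% and 35.4%, and 56.8% of regions were over 10000 bases from an excluded peak. AP-1 letters were found in 51.8% of windows of 400 bases and in 36.4% of windows centred on the ATAC7 peak. In windows of 400 bases the shares were 38.1% for ATAC2, ATAC5 or ATAC6 only and 21.5% for mirror regions, so the order held. Assigning every start site within 50000 bases gave 1519 genes. Reading starts as counted from 0 (1029 regions), leaving out peaks with 0 Input reads (1021), leaving out genes with a shared region's peak at a start site (61.1% with an ATAC7 start-site peak) and keeping distal regions over 1000 bases from an excluded peak (AP-1 in 34.9%) were added, as was the start-site comparison without genes that have a peak of either set there, after the data were seen. The ATAC7 peaks of these regions rank low in their list, and an uncalled library may still hold reads.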

Other observations

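The X chromosome held 8 of the 1024 shared regions (0.781%), against 1.99% of all merged regions and 2.51% of regions with an ATAC7 peak. The distal shared regions had a median GC content of 49.5% and 3 CpG in 200 bases, the same as distal regions of ATAC2, ATAC5 or ATAC6 only. The promoter ones had 60.5% and 10 CpG, between the 57.5% and 8 of those regions and the 66.0% and 17 of the mirror promoters. Of all shared regions, 155 (15.1%) had another within 20000 bases, and this share was not computed for other sets of regions.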
